A study of Mus musculus with 4 samples.

Results

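The genes described here are 10 feedback genes of the ERK pathway: the MAPK phosphatases Dusp4, Dusp5 and Dusp6, the Sprouty genes Spry1, Spry2 and Spry4, the Spred genes Spred1 and Spred2, and the ETS transcription factors Etv4 and Etv5. They were found by gene name among the 54532 genes of the deposited count table, and all 10 passed the filter on low counts that left 14095 genes. ERK is the last kinase of the relay that runs from growth factor receptors through Ras, Raf and MEK. Its activity induces inhibitors of the same relay. DUSP phosphatases remove the activating phosphates from ERK and related kinases, Sprouty and Spred proteins restrain the relay at Ras and Raf, and Etv4 and Etv5 are transcription factors whose mRNA is a common readout of FGF and ERK signalling. In the kidney, Spry1 is best known as an antagonist of RET signalling during branching of the ureteric bud.

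RNA-sequencing was performed on MPC5, a conditionally immortalized mouse podocyte cell line that proliferates with interferon-γ at a lower temperature and differentiates after both are withdrawn. The treated group was incubated with IL-12 for 6 h (2 libraries) and the control group received saline (2 libraries), and the comparison asked how podocyte gene expression differed with IL-12. Nothing in the labels or methods says whether the libraries were made from separate cultures, so the p-values measure the spread between these libraries, which may be technical. Total counts were between 18355379 and 20098012 per library, and 3 counts corresponded to 0.149 to 0.163 CPM (the count scaled to the library total, which for all other levels here was adjusted by TMM), a floor for counting error alone. Set against counting noise alone, the chi-square over genes divided by its degrees of freedom was 2.20 for the control pair and 2.52 for the IL-12 pair. Of 10 podocyte markers, 6 passed the filter, among them Synpo, Podxl, Cd2ap, Actn4 and Magi2, while the slit diaphragm gene Nphs1 had at most 1 count in a library, Wt1 had 4 to 16 and Ptpro had 0. The podocyte markers summed to 1980 to 1990 CPM in the control group and 1960 to 1980 CPM in the IL-12 group, and Synpo fell by 0.66 on the log2 scale. The 4 tubule markers summed to 829 to 866 CPM in the control group and 639 to 677 CPM in the IL-12 group, nearly all from Lrp2 and Cdh16, with Umod at 0. Leukocyte markers summed to 4.86 to 6.04 CPM and 5 to 7.19 CPM, with Cd3e and Adgre1 at 0, and endothelial markers stayed at or below 0.556 CPM. The 4 mesangial or fibroblast markers summed to 191 to 192 CPM and 212 to 218 CPM. The part of these shifts in the results was not tested. Il12rb1 had 25 and 8 counts without and 18 and 26 counts with IL-12, and Il12rb2 had 0, 0, 1 and 4, so both receptor genes had few counts.

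Compared with the control group, 9 of the 10 ERK feedback genes were higher with IL-12 (adjusted p below 0.05 in the quasi-likelihood test of edgeR, adjusted by Benjamini-Hochberg over the 14095 genes). By this criterion 16.1% of all genes tested were higher and 14.4% were lower, 30.5% in either direction. When only the total counts were used for scaling, the share of higher genes among all calls was 40.5% rather than 52.8%. None of the 10 fell, also at an unadjusted p below 0.05 and with DESeq2 and limma voom (0 in each). The largest changes were those of Etv4, Etv5, Dusp4 and Dusp5. Spry2 did not pass, and Spry1 passed with the smallest change of the set. The calls of Spry1, Spry4 and Spred1 were lost in some of the alternative settings described below. The median log2 fold change was 0.76 over the 10 genes and -0.0022 over all genes tested. The 10 genes were chosen with earlier results of these data known, so their counts and median describe these genes only. Both IL-12 libraries lay above both control libraries for all 10 genes, which was the case for 31.7% of all genes tested, while 31.2% had both below. With a further limit of over 2-fold, Etv4 and Etv5 were called, and 0.858% of all genes tested were called higher in this way. A total RNA library does not tell a change in the number of expressing cells from a change in RNA per cell.

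**Figure D1:**
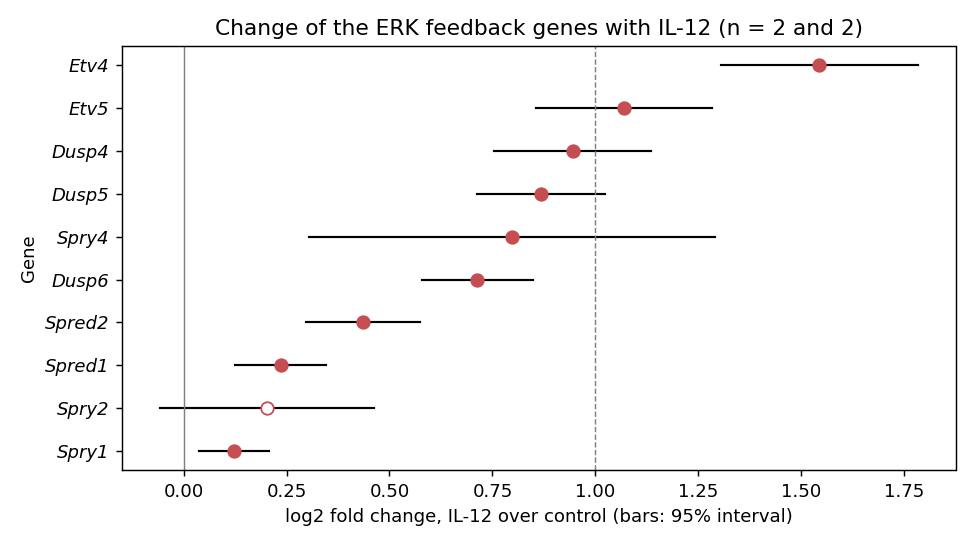
Log2 fold change (x axis, IL-12 over control) of each of the 10 genes, with 95% intervals from edgeR's quasi-likelihood fit (2 libraries per group). Filled points passed an adjusted p of 0.05, the open point (Spry2) did not, and the dashed line marks 2-fold. Etv4 stands to the right of the 2-fold line with its whole interval, and Spry1 lies nearest to 0.

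The sequences upstream of 3 of the genes are shown side by side. They are the phosphatase gene Dusp5, the most abundant of the 3 phosphatase genes of the set (Dusp6) and the most abundant gene of the set (Spry1). RefSeq promoter windows on GRCm38.p6, from 250 bases before to 50 bases after the start site, were found for 7 of the 10 genes, in 8 windows since Etv5 has more than one start. Dusp4, Spry4 and Etv4 had no entry. For Spred1 (start 117121071) and 1 Etv5 window (start 22438368), the bases just after the RefSeq start were not found in a GENCODE transcript. The deposited table places the start of Spred1 at 117121374. Each stretch below is 150 bases of the plus strand, which is the coding strand of all 3 genes. It ends just before the start site, or for Dusp5 before the start in the deposited table, which lies upstream of that in RefSeq. Capitals mark matches to the motifs searched.
Dusp5, chr19:53528959-53529108: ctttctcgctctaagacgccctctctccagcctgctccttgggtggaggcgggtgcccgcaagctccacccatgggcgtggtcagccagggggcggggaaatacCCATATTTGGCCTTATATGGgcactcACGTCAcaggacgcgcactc
Dusp6, chr10:99263081-99263230: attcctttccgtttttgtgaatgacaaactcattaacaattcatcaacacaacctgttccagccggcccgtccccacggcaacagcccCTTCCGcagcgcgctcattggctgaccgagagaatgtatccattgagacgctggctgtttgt
Spry1, chr3:37639797-37639946: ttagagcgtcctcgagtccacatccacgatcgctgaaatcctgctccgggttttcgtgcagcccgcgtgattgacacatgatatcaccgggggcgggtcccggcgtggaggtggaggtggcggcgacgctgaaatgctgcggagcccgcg
The motifs were picked after the windows had been read. They were the CArG box (the site of serum response factor), TGACGT (the core of the cAMP response element), CGGAAG (an ETS core) and TGANTCA (the AP-1 site), each on both strands. The Dusp5 window held CArG boxes CCATATTTGG, from -82 to -73 relative to the RefSeq start, and CCTTATATGG, from -72 to -63, directly next to each other. A TGACGT match on the other strand followed from -56 to -51. A CArG box was found in 1.63% of the 32851 windows of all genes, and in 1 of the 8 windows of these genes. Dusp6 had a CGGAAG match on the other strand, from -62 to -57. The TGACGT motif was in 2 of the 8 windows (Dusp5 and Spred2) and in 7.51% of all windows. CGGAAG was in 3 of the 8 (Dusp6, Spred1 and Spred2) and in 16.9% of all windows. TGANTCA was in 0 of the 8 and in 7.81% of all windows. The windows of Spry1, Spry2 and Etv5 held none of these letters. A match of letters is a description and not a bound site.

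The 3 phosphatase genes all rose. Dusp4 and Dusp5 encode nuclear MAPK phosphatases and Dusp6 encodes a cytoplasmic phosphatase that is specific for ERK. Dusp4 (ENSMUSG00000031530, chromosome 8 from 34807297 to 34819894, plus strand, GRCm38) had 16.9 and 20.6 CPM in the control libraries and 34.8 and 37.6 CPM in the IL-12 libraries. The groups did not overlap, and the gap between them was wider than the spread within either. The mean rose from 18.8 ± 2.59 CPM to 36.2 ± 1.99 CPM (SD, n = 2), which is a log2 fold change of 0.95 (standard error, SE, 0.09, adjusted p = 2.13e-07 by the edgeR test), or 1.93-fold with a 95% interval of 1.69 to 2.20. Dusp4 was thus near the 2-fold limit, and its log2 fold change was 0.81 without control library 1 and 1.09 without control library 2.

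Dusp5 (ENSMUSG00000034765, chromosome 19 from 53529109 to 53542431, plus strand) had 24.4 and 22.8 CPM in the control libraries and 41.6 and 44.7 CPM in the IL-12 libraries. Its log2 fold change was 0.87 (SE 0.07, adjusted p = 4.54e-08 by the edgeR test), with means of 23.6 ± 1.13 CPM and 43.2 ± 2.20 CPM (SD, n = 2). The control libraries were close to each other, as were the IL-12 libraries. Dusp6 (ENSMUSG00000019960, chromosome 10 from 99263231 to 99267489, plus strand) had 54.3 and 61.8 CPM in the control libraries and 89.9 and 101 CPM in the IL-12 libraries. Library 2 was the higher one in both groups, and the groups stayed apart. The means of Dusp6 were 58.1 ± 5.32 CPM and 95.3 ± 7.63 CPM (SD, n = 2), which is a log2 fold change of 0.71 (SE 0.06, adjusted p = 8.12e-08 by the same edgeR test), or 1.64-fold. The 95% intervals of the log2 fold changes were 0.75 to 1.14 for Dusp4, 0.71 to 1.02 for Dusp5 and 0.58 to 0.85 for Dusp6, and they overlapped.

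In FPKM, which divides by gene length and allows levels of different genes to be compared, Dusp6 took the largest part of the summed level of these 3 genes. The sum was 33.4 and 36.5 FPKM in the control libraries and 58.3 and 64.0 FPKM in the IL-12 libraries. The share of Dusp6 was 51.9% and 54.1% in control and 49.3% and 50.3% with IL-12. The order of the 3 genes (Dusp6, then Dusp5, then Dusp4) was the same in all 4 libraries.

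Other MAPK phosphatase genes were called in both directions. Of the 7 further genes listed, 6 passed the filter on low counts, of which 3 were higher, 2 were lower and 1 did not pass the test. Of all genes tested, 16.1% were higher and 14.4% were lower, and the list was chosen with earlier results of these data known. The median log2 fold change of the 6 was 0.16. Dusp1, an immediate early phosphatase gene and the most abundant of them, had 142 and 144 CPM in the control libraries and 169 and 166 CPM in the IL-12 libraries. It rose by a log2 fold change of 0.23 (SE 0.04, adjusted p = 0.000222 by the edgeR test), less than any of Dusp4, Dusp5 and Dusp6. Dusp7, which encodes a cytoplasmic ERK phosphatase related to Dusp6, rose by 0.28 (SE 0.07), and Dusp2, with 20 to 47 counts in a library, by 0.90 (SE 0.30). Dusp16 and Dusp8, which encode phosphatases that act on JNK and p38, fell. Dusp16 had 71.6 and 68.4 CPM in the control libraries and 54.8 and 57.3 CPM in the IL-12 libraries, with a log2 fold change of -0.32 (SE 0.05, adjusted p = 0.00015 by the edgeR test). Dusp8 was close to the threshold, with a log2 fold change of -0.22 (SE 0.08, adjusted p = 0.0481 by the same test). Dusp10 showed a log2 fold change of 0.10 (SE 0.10), and Dusp9 had 0 counts. These counts of calls rested on single libraries, since without control library 1 and without IL-12 library 1 only Dusp1 was called higher and only Dusp16 lower. Dusp2 and Dusp8 were also not called without IL-12 library 2.

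**Figure D2:**
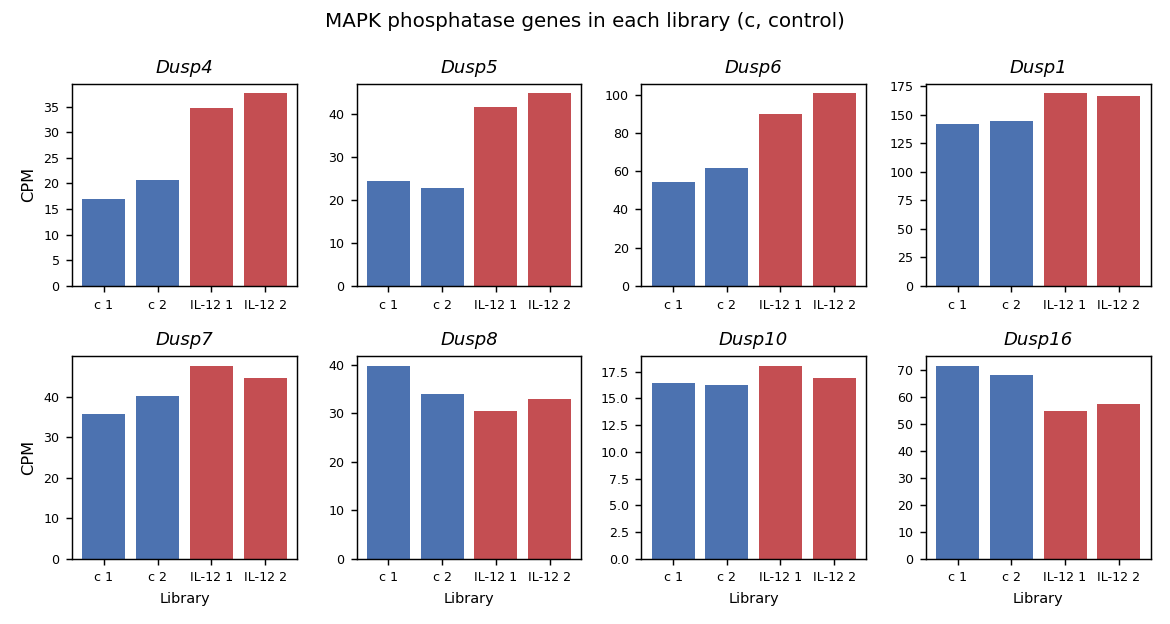
CPM (y axis, from 0, own scale in each panel) of 8 MAPK phosphatase genes in the 4 libraries (x axis, blue for control and red for IL-12, 1 bar per library). In Dusp4, Dusp5 and Dusp6 both red bars stand well above both blue bars, in Dusp1 and Dusp7 by a smaller step, and in Dusp8 and Dusp16 below them.

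Of the 3 Sprouty genes, Spry1 and Spry4 rose and Spry2 did not pass the test. Sprouty proteins are membrane-associated inhibitors that become phosphorylated on tyrosine after growth factor stimulation. Spry1 (ENSMUSG00000037211, chromosome 3 from 37639947 to 37644598, plus strand) was by far the most abundant gene of the set. It had 209.9 and 227 CPM in the control libraries and 233 and 243 CPM in the IL-12 libraries. The highest control library and the lowest IL-12 library were closer to each other than the control libraries were. Its means were 219 ± 12.2 CPM and 238 ± 6.85 CPM (SD, n = 2), which is a log2 fold change of 0.12 (SE 0.04, adjusted p = 0.0294 by the edgeR test), or 1.09-fold with a 95% interval of 1.03 to 1.16. This call was lost without control library 1 (log2 fold change 0.07), without IL-12 library 1 (0.15) and without IL-12 library 2 (0.09). It was also lost with total counts as scaling (0.08, adjusted p = 0.146 by edgeR) and with DESeq2 (adjusted p = 0.0884). The gene overlaps the opposite-strand locus Gm42922, which had 25 counts over the 4 libraries against 17266 for Spry1.

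Spry2 (ENSMUSG00000022114, chromosome 14 from 105891947 to 105896819, minus strand) was the gene that did not pass. It had 10.6 and 9.38 CPM in the control libraries and 11 and 12 CPM in the IL-12 libraries. The IL-12 libraries were above the control libraries by less than the control libraries differed from each other. The log2 fold change was 0.20 with a 95% interval of -0.06 to 0.46 (adjusted p = 0.243 by the edgeR test), so a rise as large as 1.38-fold was within the interval. Spry4 (ENSMUSG00000024427, chromosome 18 from 38586268 to 38601268, minus strand) was the least abundant gene, with counts of 51 and 35 in control and 81 and 69 with IL-12. These counts were 2.69 and 1.85 CPM against 4.09 and 3.81 CPM, and the groups did not overlap. The log2 fold change of Spry4 was 0.80 with a wide 95% interval of 0.31 to 1.29 (SE 0.23, adjusted p = 0.0141 by the edgeR test). The call was lost without control library 2 (log2 fold change 0.56), without IL-12 library 1 (0.75) and without IL-12 library 2 (0.85), and with DESeq2 (adjusted p = 0.103).

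Because Spry1 was so abundant, it decided the Sprouty level as a whole. Spry1 made up between 92.7% and 94.1% of the summed FPKM of the 3 Sprouty genes in each library. The share of Spry4 was 0.754% and 0.487% in control and 1.03% and 0.923% with IL-12. The summed level of the 3 genes was 77.8 and 83.1 FPKM in the control libraries and 86.4 and 90.2 FPKM in the IL-12 libraries. Spry3, the remaining Sprouty gene, had 2 to 8 counts in a library and was not tested.

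Both Spred genes rose moderately. Spred proteins bind neurofibromin, the product of Nf1, and bring this Ras inactivator to the membrane. Spred2 (ENSMUSG00000045671, chromosome 11 from 19924375 to 20024026, plus strand) had 33.6 and 35.6 CPM in the control libraries and 45.8 and 47.8 CPM in the IL-12 libraries. The libraries of each group lay close together, and the groups were clearly apart. Its means were 34.6 ± 1.36 CPM and 46.8 ± 1.35 CPM (SD, n = 2), which is a log2 fold change of 0.44 (SE 0.07, adjusted p = 4.36e-05 by the edgeR test), or 1.35-fold. Spred1 (ENSMUSG00000027351, chromosome 2 from 117121374 to 117182279, plus strand) had 69.2 and 70.9 CPM in the control libraries and 79.2 and 86.0 CPM in the IL-12 libraries. It rose by a log2 fold change of 0.24 (SE 0.05, adjusted p = 0.00196 by the edgeR test), or 1.18-fold. Without IL-12 library 2, the higher of the IL-12 libraries, the log2 fold change of Spred1 was 0.18 and no longer passed. Spred1 accounted for 58.4% and 57.6% of the summed Spred1 and Spred2 FPKM in control, and for 54.1% and 55.1% with IL-12. Spred3, the relative in the same family, showed a log2 change of 0.17 (SE 0.07, adjusted p = 0.0822 by the edgeR test) and did not pass. Nf1 was lower by a log2 fold change of -0.15 (SE 0.05, adjusted p = 0.0457 by the same test), a call that was kept only when IL-12 library 2 was the one left out.

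The ETS factors had the largest changes. Etv4 and Etv5 belong to the PEA3 subfamily, which in the developing kidney acts downstream of RET. Etv4 (ENSMUSG00000017724, chromosome 11 from 101769742 to 101785371, minus strand) had counts of 149 and 177 in control and 529 and 425 with IL-12. In CPM these were 7.87 and 9.38 against 26.7 and 23.5, so the lower IL-12 library was more than double the higher control library. The means were 8.62 ± 1.07 CPM and 25.1 ± 2.30 CPM (SD, n = 2). Its log2 change was 1.54 (SE 0.11, adjusted p = 6.7e-09 by the edgeR test), or 2.92-fold with a 95% interval of 2.47 to 3.44. It was higher than 99.6% of the log2 fold changes of all genes tested, at rank 57 from the top. Etv4 was also the gene of the set that passed edgeR's test against the 2-fold limit itself.

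Etv5 (ENSMUSG00000013089, chromosome 16 from 22381309 to 22439719, minus strand) had 11.1 and 11.7 CPM in the control libraries and 22.6 and 25.4 CPM in the IL-12 libraries. The means were 11.4 ± 0.404 CPM and 24.0 ± 2.0 CPM (SD, n = 2), which is a log2 fold change of 1.07 (SE 0.10, adjusted p = 1.98e-07 by the edgeR test), or 2.10-fold. Its 95% interval of 1.81 to 2.44-fold held the 2-fold limit, and without IL-12 library 2 the log2 fold change was 0.98. Per length, both genes stood at the same level in the control group. The ratio of Etv4 FPKM to Etv5 FPKM was 0.933 and 1.06 in control and 1.56 and 1.22 with IL-12. Both IL-12 libraries had the higher ratio, with p = 0.333 in a two-sided exact permutation test, which is the smallest value that 2 libraries against 2 can give. Etv1, the remaining PEA3 gene, had 0 counts in all 4 libraries.

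The order of levels also differed between the groups. By FPKM in the control group the order was Spry1 (72.2 to 78.2), Dusp6 (17.3 to 19.8), Spred1 (10.2 to 10.5), Dusp5 (9.24 to 9.87), Spred2 (7.27 to 7.70), Dusp4 (6.18 to 7.53), Spry2 (4.50 to 5.05), Etv5 (2.71 to 2.86), Etv4 (2.53 to 3.02) and Spry4 (0.405 to 0.586). Among neighbours in this order, the ranges of Spred2 and Dusp4 overlapped, as did those of Etv5 and Etv4. In the IL-12 group Dusp5 (16.8 to 18.1 FPKM) and Dusp4 (12.7 to 13.7 FPKM) stood at or above Spred1 (11.7 to 12.7 FPKM), and Etv4 (7.58 to 8.62 FPKM) and Etv5 (5.51 to 6.20 FPKM) stood above or within the range of Spry2 (5.26 to 5.75 FPKM). Spry1 remained the highest (80.3 to 83.6 FPKM) and Spry4 the lowest (0.832 to 0.893 FPKM).

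**Figure D3:**
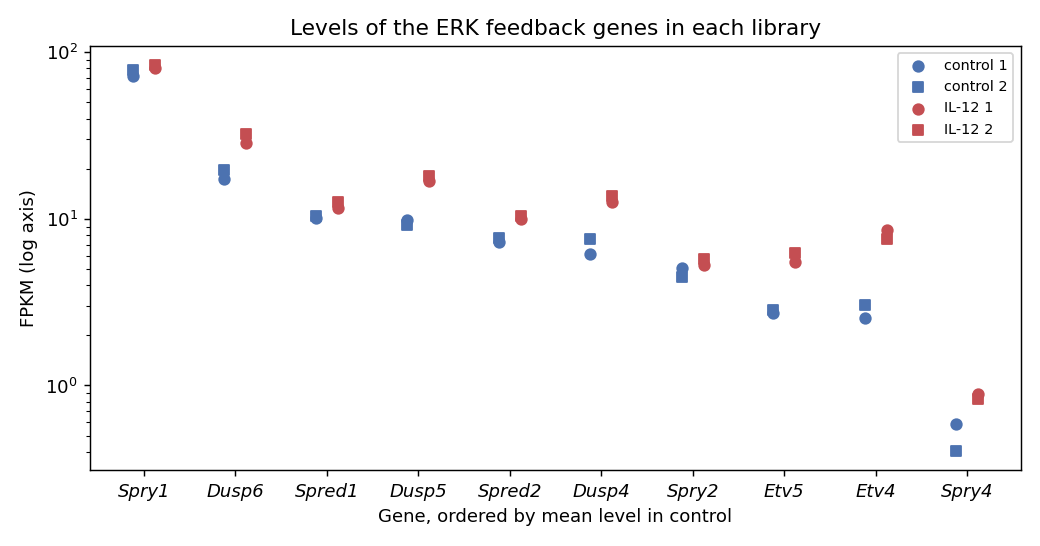
FPKM (y axis, log scale) of the 10 genes in each of the 4 libraries (blue for control, red for IL-12, circles for library 1 and squares for library 2), ordered by the mean level in control. All red points lie above the blue points of the same gene, by the widest step in Etv4 and the narrowest in Spry1.

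The rest of the pathway was described through lists of genes named for their role. These lists were chosen with earlier results of these data known, so their counts of calls describe the listed genes only. Over 5 such lists, 66 of 70 genes passed the filter on low counts, of which 27 were higher, 11 were lower and 28 did not pass the edgeR test. Of 25 Ras-ERK core genes, 5 were higher (20%), 5 were lower (20%) and 15 did not pass, shares near the 16.1% and 14.4% of all genes tested, and the median log2 fold change was -0.00182. Mapk3, which encodes an ERK kinase, fell from 145 and 148 CPM to 119 and 117 CPM, a log2 fold change of -0.32 (SE 0.04, adjusted p = 1.03e-05 by the edgeR test). The other genes that fell were Gab1, a docking protein of receptor tyrosine kinases (log2 fold change -0.56, SE 0.06), Braf (-0.29, SE 0.07), Rps6ka1, which encodes a kinase activated by ERK (-0.28, SE 0.05), and Sos1, a Ras activator (-0.17, SE 0.06). The genes that rose were Elk3 (0.47, SE 0.05) and Srf (0.33, SE 0.05), which encode a ternary complex factor and the serum response factor that binds the CArG box, and Nras (0.20), Hras (0.17) and Ptpn11 (0.10). Without control library 1 or without IL-12 library 2 only 3 core genes were called higher, and without IL-12 library 1 only 3 were called lower. The calls that depended on a library were those of Hras and Ptpn11 among the higher genes and Sos1 and Braf among the lower genes.

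Among 15 other negative regulators of Ras-ERK signalling, 14 passed the filter, of which 7 were higher (50%), 3 were lower and 4 did not pass. Of all genes tested, 16.1% were higher and 14.4% were lower, and this list too was chosen with earlier results known. The median log2 fold change of the list was 0.18. Pea15a, whose protein holds ERK in the cytoplasm, rose from 316 and 318 CPM to 403 and 405 CPM, a log2 fold change of 0.35 (SE 0.03, adjusted p = 6.54e-08 by the edgeR test). Dok1, Rasa1, Rasal2, Errfi1, Rasa2 and Ptpn12 rose by 0.22 to 0.35 on the log2 scale, of which Rasa2 and Rasal2 were not called without IL-12 library 1 and Rasa2 also not without IL-12 library 2. The 3 of the list that fell were Nf1, Cic and Flrt3, with Flrt3 at a log2 fold change of -0.54 (SE 0.10). Flrt3 stands in the list although its protein is known to promote FGF receptor signalling. Cic encodes a repressor of transcription that is inactivated by ERK and whose known targets include Etv4 and Etv5. It had 277 and 286 CPM in the control libraries and 206 and 209 CPM in the IL-12 libraries, with a log2 fold change of -0.44 (SE 0.04, adjusted p = 2.16e-08 by the edgeR test). Pebp1, Lztr1 and Cbl did not pass, with log2 fold changes of 0.04, -0.08 and -0.08.

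Of 20 other genes known to be induced by ERK, 12 were higher (60%), 1 was lower and 7 did not pass. Of all genes tested, 16.1% were higher and 14.4% were lower, and this list was chosen with earlier results known. The median log2 fold change of the list was 0.48. Il1rl1, which encodes the receptor of IL-33, had 39.0 and 42.0 CPM in the control libraries and 109 and 105 CPM in the IL-12 libraries, with a log2 fold change of 1.40 (SE 0.05, adjusted p = 8.75e-13 by the edgeR test). Maff (0.98, SE 0.08), Fosl1 (0.94, SE 0.07) and Plaur (0.91, SE 0.05) also had log2 fold changes close to 1, and Myc, Hbegf, Ccnd1 and Lif rose by 0.55 to 0.66 on the log2 scale. Vgf (0.87, SE 0.28) was not called without control library 1 or IL-12 library 1, and Phlda1 (0.22, SE 0.06) not without IL-12 library 2. Among the immediate early genes of this list, for example, Egr3 rose by 0.75 on the log2 scale (SE 0.14), Egr1 did not pass and Fos fell. Further immediate early genes of the list, not named here, did not pass. Egr1 had 185 and 196 CPM in the control libraries and 197 and 207 CPM in the IL-12 libraries, with a log2 fold change of 0.08 (SE 0.04, adjusted p = 0.145 by the edgeR test). Fos had 9.50 and 10.6 CPM in the control libraries and 6.72 and 7.96 CPM in the IL-12 libraries, with a log2 fold change of -0.46 (SE 0.14, adjusted p = 0.0182 by the same test). The fall of Fos was not called without control library 2 or without IL-12 library 1, nor with no filter, with DESeq2 or with either FPKM scale. Epha4 and Ier3 did not pass, with log2 fold changes of 0.08 and -0.10.

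**Figure D4:**
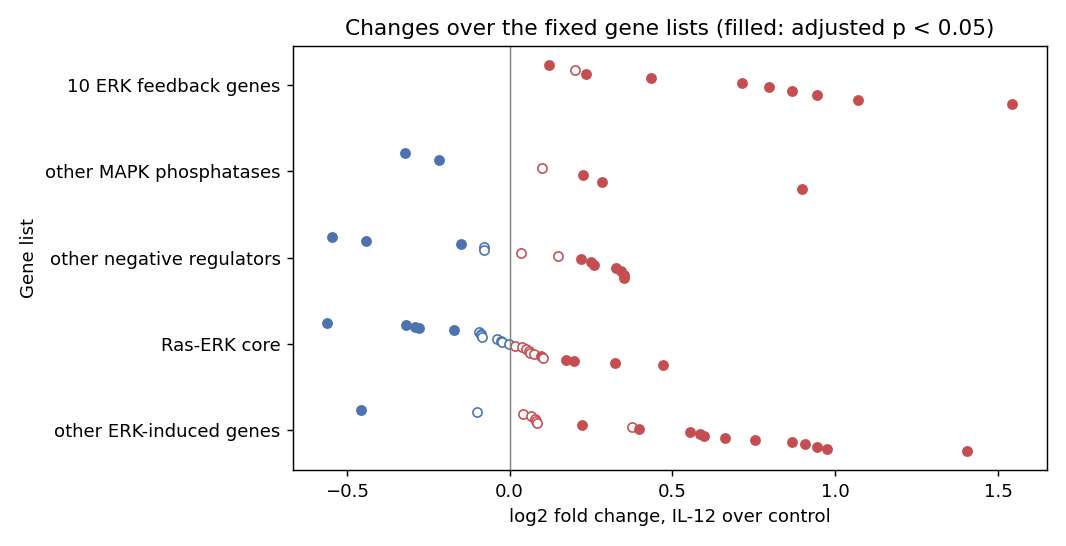
Log2 fold change (x axis, IL-12 over control) of each gene that passed the filter in 5 groups of genes (y axis). Filled points passed an adjusted p of 0.05, with red for higher and blue for lower. The 10 feedback genes all lie to the right of 0, while the Ras-ERK core genes spread to both sides of it. The list of relatives with 1 tested gene (Spred3) is not drawn.

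The genes whose profile was most like that of the set were searched among 9487 other genes of at least 10 CPM. The profile was the log2 CPM over the 4 libraries, centred on its own mean, and the mean profile of the 10 genes was -0.35 and -0.32 in control and 0.30 and 0.37 with IL-12. The nearest genes by Euclidean distance were Ndst3 (0.0271), Polr1b (0.0342), Skil (0.035), Timm8a1 (0.0431) and Prkca (0.0456). Their log2 fold changes were 0.66 to 0.70, which follows from picking them by nearness to that mean profile. The 10 genes themselves had log2 fold changes from 0.12 (Spry1) to 1.54 (Etv4).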

How the data were processed

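MPC5 podocytes were sequenced as 2 control libraries and 2 libraries treated with IL-12 for 6 h. The deposited values are raw counts for each gene, without normalization by the authors, and FPKM values by the authors, which equal the count over gene length and library total times a fixed factor per library of 0.985 to 1.02. The submitters' processing notes name HISAT2, StringTie and the build mm9, without versions or parameters. The deposited coordinates are those of GRCm38, since 98.3% of the 54409 genes shared with GENCODE M21 had equal positions, among them 9 of the 10 feedback genes (Spry4 differed slightly). Whether the counting used strand is not given in the sources used here.

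Counts were filtered with filterByExpr (minimum 10, total 15), scaled by TMM (factors 0.985 to 1.02) and tested with edgeR 4.0.16 in R 4.3.3 (quasi-likelihood test, group as the only term, Benjamini-Hochberg adjustment). Groups were taken from the sample titles. A gene was called at an adjusted p below 0.05, and also with the study's limit of over 2-fold. CPM used the TMM-scaled totals. The SE of a log2 change was taken as that change over the root of its F. The test was checked on simulated counts. limma 3.58.1 and DESeq2 1.42.0 served as alternatives, and figures were drawn with matplotlib 3.10.9 in Python 3.11.15. Further alternatives were other scalings, other filters, the likelihood ratio test, a replicate block, log2(FPKM + 1) and log2(FPKM + 0.1), tests against fold limits, and leaving out each library. Precision was limited by 2 libraries per group, for which an exact permutation test cannot give a p below 0.333.

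The 10 genes and the other lists were chosen with earlier results of these data known. Named genes were the 10 genes, the called genes of the lists, in each list the 3 most abundant genes that were not called, the receptor genes, and the 5 genes nearest in profile. Some genes that this rule or the marker lists pick are not reported here. Spry3, Etv1, Dusp9, Ptpro and other markers below the filter are given by their counts.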

Additional observations from a re-analysis of the deposited data

How the results depend on the processing

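With 2 libraries per group the calls rest on the spread that the models share across genes, and levels near 3 counts cannot show a difference. Dusp4, Dusp5, Dusp6, Spred2, Etv4 and Etv5 were called higher in all 15 alternatives computed for them, and Spry2 in none. The causes of the changes below were not tested. Spry1 lost its call with upper-quartile factors (log2 fold change 0.11), total counts only (0.082), no filter (0.12), DESeq2 (0.12), log2(FPKM + 1) (0.12) and log2(FPKM + 0.1) (0.12), with adjusted p of 0.0034 to 0.383 over all alternatives. Spry4 lost its call with DESeq2 (0.80), log2(FPKM + 1) (0.32) and log2(FPKM + 0.1) (0.71), with adjusted p of 0.0036 to 0.146. Spred1 lost its call with log2(FPKM + 1) (0.22) and log2(FPKM + 0.1) (0.24), with adjusted p of 0.000253 to 0.11. When each library was left out in turn, the log2 fold change was 0.069 to 0.18 for Spry1, 0.56 to 1.09 for Spry4 and 0.18 to 0.30 for Spred1, and 6 to 8 of the 10 genes were called higher. With the limit of over 2-fold, 1 gene was called with log2(FPKM + 1). When a library was left out, the log2 fold change was 0.81 to 1.09 for Dusp4 and 0.98 to 1.155 for Etv5, on both sides of 2-fold. A test against the 2-fold limit itself called 1 gene (Etv4). A test against a 1.5-fold limit, which does not ask for a 2-fold change, called 4 (Dusp4, Dusp5, Etv4 and Etv5).

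Over all genes, leaving out a library gave 1404 to 2010 higher and 1124 to 1712 lower genes, against 2267 and 2030, and 62 to 123 genes lower by over 2-fold, against 106. DESeq2 gave 1481 higher and 1204 lower (67 and 40 over 2-fold), log2(FPKM + 1) 1179 and 1036 (30 and 8), and log2(FPKM + 0.1) 584 and 515 (72 and 38), where all 4 libraries with edgeR gave 121 and 106 over 2-fold. Of the other pathway genes, 11 were called higher with log2(FPKM + 0.1). The number called lower was 6 with no filter, 7 with DESeq2, 6 with log2(FPKM + 1) and 4 with log2(FPKM + 0.1), and 6 to 10 when a library was left out.

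With the replicate number of the labels as a block, 9 of the 10 genes were called higher, 2 of them over 2-fold, and the log2 fold changes of Dusp4, Etv4 and Etv5 were 0.95, 1.54 and 1.07. Over all genes the block gave 2272 higher and 2069 lower genes. The deviations of same-numbered libraries from their group means had a correlation of -0.0297 across genes, so the numbers are shared labels and not a shown pairing.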
